A study of Mus musculus with 6 samples.

Results

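Kruppel-like factors are transcription factors that bind GC-rich DNA and CACCC elements through zinc fingers at their carboxyl end. The 10 genes described here are Klf2, Klf3, Klf4, Klf5, Klf6, Klf7, Klf9, Klf10, Klf13 and Klf15, taken by symbol from a table of 43074 gene symbols. All 10 were in the table and all 10 passed the filter on low counts that left 17433 genes for testing. They were measured by RNA sequencing in C2C12 cells, an immortalised wild-type line of mouse myoblasts that stop dividing and fuse into myotubes when serum is reduced. Each of 3 groups had 2 libraries: untreated cells at day 0, cells after 4 days in horse serum differentiation medium with DMSO, and cells after 4 days in the same medium with 1 mM 4-phenylbutyric acid (4-PBA). 4-PBA is a short aromatic fatty acid that is known to assist protein folding and to inhibit histone deacetylases. The libraries come from 1 cell line, and nothing in the labels tells if the 2 replicates of a group came from different cultures, so the p-values measure only the spread between these libraries.

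The family is commonly divided by the partners of its proteins. Klf2, Klf4, Klf5, Klf6 and Klf7 belong to the group best known as activators, Klf3 recruits the corepressor CtBP, and Klf9, Klf10 and Klf13 recruit the corepressor Sin3a. Klf15 stands outside these groups and is known in muscle as a glucocorticoid-responsive regulator of amino acid and lipid metabolism. In muscle cells Klf2 and Klf4 are known targets of the ERK5 kinase and the MEF2 transcription factors during myoblast fusion.

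Total counts ranged from 47908926 to 74697397 per library, and the 10 genes together took 0.0808% to 0.128% of them. Markers of the myogenic state fitted the labels: the summed level of 8 myoblast and myotube markers was 1074 to 1082 CPM (counts scaled to sequencing depth with TMM factors) at day 0, 5506 to 5744 CPM with DMSO and 5353 to 5441 CPM with 4-PBA. The sum of 5 proliferation markers was 1599 to 1627 CPM at day 0, 446 to 519 CPM with DMSO and 553 to 562 CPM with 4-PBA. Markers of other cell types were low, with sums of at most 0.165 CPM for adipocytes (4 genes, Cfd at 0 counts), 2.65 CPM for endothelium (4 genes), 6.11 CPM for macrophages (4 genes) and 3.36 CPM for osteoblasts (4 genes). In such bulk libraries, a change in the share of a kind of cell and a change in RNA per cell cannot be told apart.

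Promoters are shown for Klf2 and Klf4, the members tied to MEF2 and ERK5, and for Klf6 and Klf7, members that were lower with 4-PBA. RefSeq promoter sequences (GRCm38.p6, an older build than the GRCm39 of the submitters' processing notes) matched 8 of the 10 members by symbol. Klf5 and Klf10 had no match. Each sequence is the 250 bases before the annotated start, 5′ to 3′ along the gene. Capitals mark matches on either strand to a MEF2 site in Klf2, to the GC box GGGCGG in Klf4, to the CCAAT box CCAAT in Klf6 and to the CACCC box CCACCC in Klf7.
Klf2, chr8:72318812-72319061, plus strand: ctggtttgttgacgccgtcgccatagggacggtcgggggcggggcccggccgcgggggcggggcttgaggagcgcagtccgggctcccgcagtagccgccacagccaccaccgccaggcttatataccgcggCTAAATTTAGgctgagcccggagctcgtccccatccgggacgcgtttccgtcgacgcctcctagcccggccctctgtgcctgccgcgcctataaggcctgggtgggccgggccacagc
Klf4, chr4:55532476-55532725, minus strand: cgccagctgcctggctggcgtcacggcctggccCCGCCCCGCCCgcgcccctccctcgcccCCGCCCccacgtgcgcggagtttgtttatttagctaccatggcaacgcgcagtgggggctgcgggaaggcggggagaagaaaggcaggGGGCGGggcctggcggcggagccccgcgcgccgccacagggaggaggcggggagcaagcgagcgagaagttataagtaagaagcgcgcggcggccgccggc
Klf6, chr13:5861239-5861488, plus strand: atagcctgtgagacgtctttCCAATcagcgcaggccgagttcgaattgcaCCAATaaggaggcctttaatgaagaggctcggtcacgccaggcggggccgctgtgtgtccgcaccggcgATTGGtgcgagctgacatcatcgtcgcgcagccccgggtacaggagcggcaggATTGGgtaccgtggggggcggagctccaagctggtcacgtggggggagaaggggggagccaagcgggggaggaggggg
Klf7, chr1:64121390-64121639, minus strand: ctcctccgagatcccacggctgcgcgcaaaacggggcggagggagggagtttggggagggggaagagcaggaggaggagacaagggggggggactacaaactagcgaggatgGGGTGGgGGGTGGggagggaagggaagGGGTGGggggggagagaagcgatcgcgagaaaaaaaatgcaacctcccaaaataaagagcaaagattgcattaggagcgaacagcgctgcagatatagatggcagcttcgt

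The Klf2 promoter held 1 MEF2 match, CTAAATTTAG, from 118 to 109 bases before the start, where the same letters read on both strands. Such a match was found in 1 of the 8 member promoters and in 2.92% of 32851 promoter windows of the same length. The Klf6 promoter held 4 CCAAT boxes, a number reached by 0.84% of all windows. The Klf4 promoter held 4 GC boxes, the first 2 of which share a base, and 4.09% of all windows held as many. The Klf7 promoter held 3 CACCC boxes, a number reached by 1.78% of all windows. None of these marked matches overlapped a match to another motif searched. The motif in capitals was picked separately for each gene from all those searched, so these percentages describe chosen motifs. The promoter of Klf3, not shown, held 6 GC boxes.

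Across the 8 member promoters, a GC box was present in 7 (32.7% of all windows), a CCAAT box in 4 (33.8%), a CACCC box in 4 (28.1%) and an E-box, CANNTG, in 6 (66.2%). The motif TGACG was present in 5 (17.8%). A TATA box (TATAAA) was in 0 of the 8 (12.4% of all windows), as were the CArG box bound by serum response factor (1.47%), the NF-κB site (3.9%), the AP-1 site (4.46%) and the glucocorticoid response element (0.387%). The median GC content of all windows was 52.4%, against 71.2% for Klf2, 74% for Klf4, 64.8% for Klf6 and 59.2% for Klf7. These matches describe letters in a window and are not evidence of binding.

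Expressed per length, as CPM per kilobase of exon in GENCODE M21, the highest of the 10 genes were Klf6, Klf4 and Klf2. At day 0 Klf6 was highest at 59.7 ± 0.996 CPM per kilobase (SD, n = 2), followed by Klf4 at 44.7 ± 1.33 and Klf2 at 32.4 ± 0.772. The libraries of these neighbours did not overlap. Below them, Klf13 and Klf10 stood level at 10.0358 ± 0.217 and 10.0044 ± 0.173 CPM per kilobase, then Klf3, Klf9, Klf5 and Klf7 between 8.42 and 6.19. Libraries overlapped between the neighbours Klf13 and Klf10 and between Klf9 and Klf5. Klf15 was far below the rest at 0.0374 ± 0.00962 CPM per kilobase. Of the Klf genes outside the 10, Klf16 stood at 16.1 CPM per kilobase at day 0, between Klf2 and Klf13, and Klf11 at 5.34.

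At day 4 the order at the top was different. In DMSO-treated cells Klf4 was highest at 106.8 ± 4.40 CPM per kilobase, above Klf6 at 72.8 ± 2.04 and Klf2 at 49.2 ± 0.570. With 4-PBA the order of these 3 was the same, with Klf4 at 109 ± 0.298, Klf6 at 60.9 ± 3.05 and Klf2 at 50.0342 ± 2.56 CPM per kilobase. Klf6 supplied 31.8% ± 0.527 of the summed level of the 10 genes at day 0, 23.6% ± 0.917 with DMSO and 20.4% ± 0.820 with 4-PBA. Klf4 supplied 23.8% ± 0.711, 34.6% ± 1.05 and 36.6% ± 0.463 of it in these groups. The summed level itself was 187.467 and 187.501 CPM per kilobase in the day 0 libraries, 306 and 311 with DMSO, and 300.2 and 296 with 4-PBA, so the groups did not overlap. With the longest transcript in place of all exons the first 3 ranks were the same in each group, but lower ranks moved. Klf3, whose exons add up to more than its longest transcript, was at rank 4 in place of 6. Its level was 33.7 in place of 15.6 CPM per kilobase with DMSO. Klf13 was at rank 7 in place of 4 at day 0 and with DMSO, and at rank 6 with 4-PBA. At day 0 Klf13 then stood at 11.8 and Klf10 at 13.7 CPM per kilobase. Klf5 and Klf9 also changed rank at day 0.

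**Figure D1:**
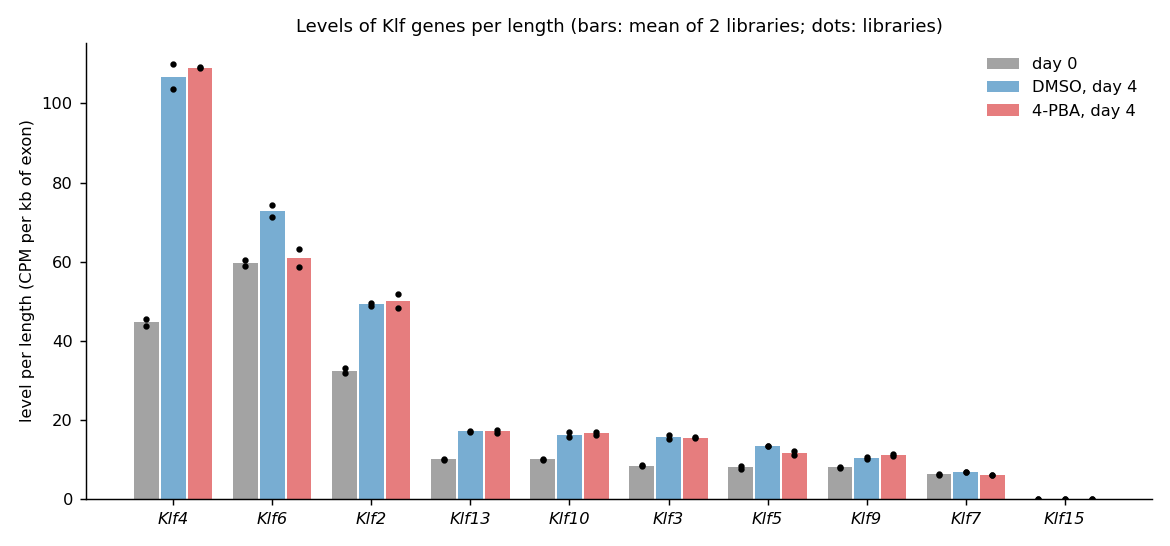
Levels per length (CPM per kilobase of exon, linear axis from 0) of the 10 Klf genes in the 3 groups; bars are means of 2 libraries and dots are libraries. Klf6 is highest at day 0 (59.7) and Klf4 at day 4 (106.8 with DMSO, 109 with 4-PBA), while Klf15 lies near 0 in each group.

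Most of the 10 genes were higher in cells differentiated with DMSO than in cells at day 0. These groups differ at once in time in differentiation medium and in DMSO, whose parts cannot be told apart. edgeR's quasi-likelihood test called 9 of the 10 genes higher and 0 lower, where 33.8% of all tested genes were called higher, 32.6% lower and 66.3% in either direction. DESeq2 and limma-voom also called 9 higher and 0 lower. The 10 genes were chosen with earlier results of these data known. Their shares here and below, set beside those of all tested genes, therefore carry no test. For each of the 9 called genes, both DMSO libraries lay above both day 0 libraries, as for 42.0% of all tested genes. Klf15 also did, but it passed the filter only through its day 4 libraries and is not counted here. The median log2 fold change of the 10 genes was 0.72, against 0.02 over all tested genes. It was also 0.72 for the 9 genes left by a stricter filter, which dropped Klf15. As measured facts beside this, myotube markers rose and proliferation markers fell between these groups, and their part in the Klf values was not tested.

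Of the activator group, Klf4, known for its part in differentiation and in reprogramming to pluripotency, had the largest called rise. It had 139 and 133 CPM at day 0 against 316 and 335 CPM with DMSO. Both DMSO libraries lay far above day 0, and the log2 fold change was 1.26 (SE 0.0334, adjusted p 3.68e-27). Klf2, a factor known from quiescent endothelium and T cells, stood at 60.9 and 58.9 CPM at day 0 and at 91.5 and 90.0481 CPM with DMSO. Its rise was smaller than that of Klf4, at 0.60 (SE 0.0425, adjusted p 8.31e-15).

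Klf5, known as a growth-associated factor of epithelium and smooth muscle, stood at 39.2 and 43.7 CPM at day 0 and at 69.4 and 69.9 CPM with DMSO. The DMSO libraries lay close together and above both day 0 libraries, and the log2 fold change was 0.74 (SE 0.0531, adjusted p 2.47e-13). Klf6, which is known as an early response gene of injured tissue, stood at 259 and 265 CPM at day 0 and at 326 and 313 CPM with DMSO. The groups did not overlap, but the change was modest, a log2 fold change of 0.29 (SE 0.0334, adjusted p 3.86e-09). Klf7, best known from developing neurons, had the smallest rise of the called members, from 49.6 and 51.1 CPM to 56.1 and 55.5 CPM (0.15 in log2, SE 0.0464, adjusted p 0.00592). It was not called without day 0 replicate 1 (log2 fold change 0.12, adjusted p 0.0765), and in GENCODE M21 its exons overlap Gm13748 and Gm26649 on the opposite strand, so its value is uncertain to that extent.

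Klf3, the CtBP-binding repressor, stood at 93.3 and 96.1 CPM at day 0 and at 171 and 180.3 CPM with DMSO. This was the second largest called rise (log2 fold change 0.89, SE 0.0353, adjusted p 5.26e-22); exons of Klf3 overlap Gm20033 on the opposite strand, so part of its counts cannot be assigned with certainty. In the Sin3a-binding group, Klf13, known from lymphocytes, stood at 74.4 and 76.7 CPM at day 0 and at 129.7 and 127 CPM with DMSO (0.77 in log2, SE 0.0375, adjusted p 2.74e-19). Klf10, known as an early target of TGF-beta, stood at 41.3 and 42.3 CPM at day 0 and at 65.4 and 70.6 CPM with DMSO (0.70, SE 0.0483, adjusted p 4.24e-15). Klf9, known to respond to thyroid and steroid hormones, rose less, from 39.3 and 38.1 CPM to 48.9 and 51.2 CPM (0.37, SE 0.0498, adjusted p 3.91e-08). In these 4 genes the groups were separate.

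Klf15 was barely detected. Its counts were 6 and 6 in the day 0 libraries, 12 and 17 with DMSO, and 18 and 10 with 4-PBA, or 0.123 and 0.0855, 0.190 and 0.229, and 0.290 and 0.161 CPM. The DMSO values lay above the day 0 values, but the difference could not be resolved at this depth (log2 fold change 1.03, SE 0.694, 95% interval -0.38 to 2.44, adjusted p 0.195). It passed the filter through its day 4 libraries.

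**Figure D2:**
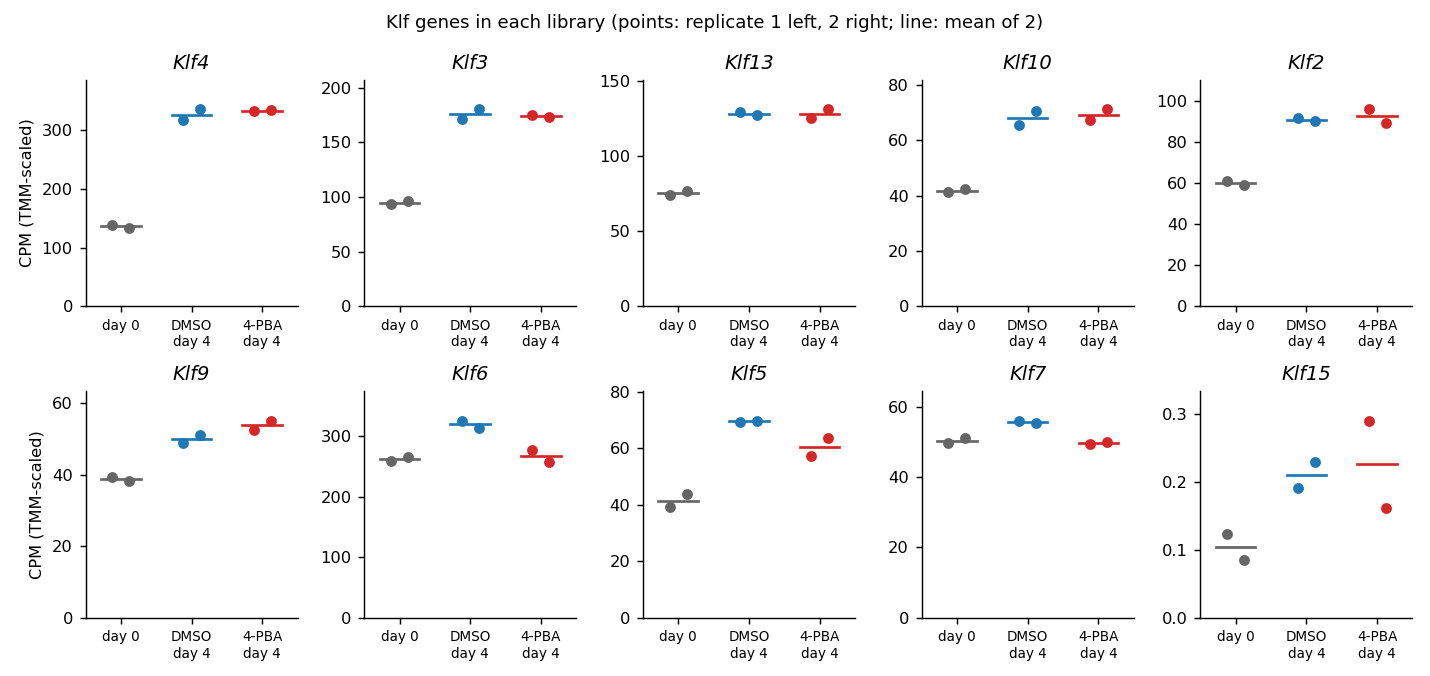
CPM after TMM scaling (linear axes from 0, a separate scale for each gene) in the 6 libraries, with points for replicates 1 (left) and 2 (right) and a line at the mean of 2 libraries. In each panel both DMSO libraries lie above both day 0 libraries, though Klf15 passed the filter only through its day 4 libraries. Klf5, Klf6 and Klf7 are lower with 4-PBA than with DMSO.

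Cells with 4-PBA were then set against cells with DMSO, both after 4 days of differentiation. Of the 10 genes, 3 fell and 0 were called higher: Klf6, Klf5 and Klf7, all from the activator group. That group also holds Klf2 and Klf4, which were not called. edgeR called 2.78% of all tested genes lower, 2.13% higher and 4.90% in either direction. At an unadjusted p under 0.05, 4 of the 10 passed (16.7% of all tested genes did), 1 of them higher (Klf9). DESeq2 called 2 of the 10 and limma-voom 3, with 0 higher in both. The median log2 fold change of the 10 genes was 0.011 against 0.0021 over all tested genes. The libraries of the groups did not overlap for 4 of the 10, a share close to the 45.5% of all tested genes.

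Klf6 showed the clearest difference. It stood at 326 and 313 CPM with DMSO and at 277 and 258 CPM with 4-PBA. Both 4-PBA libraries lay below both DMSO libraries and on either side of the day 0 libraries, at 259 and 265 CPM. Klf6 fell by 16.3% between DMSO and 4-PBA (log2 fold change -0.26, SE 0.0334, 95% interval -0.33 to -0.19, adjusted p 6.42e-06), and it was called under all 14 alternatives, with adjusted p-values up to 0.00556. Its promoter is the one shown above with 4 CCAAT boxes. That of Klf7 held 0, and Klf5 had no matched promoter sequence. Among members not called, that of Klf9 held 3, that of Klf13 2, that of Klf15 1 and those of Klf2, Klf3 and Klf4 0. A link between such boxes and 4-PBA was not tested.

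Klf5 stood at 69.4 and 69.9 CPM with DMSO and at 57.5 and 63.6 CPM with 4-PBA. The 4-PBA libraries lay between those of day 0 and DMSO and further apart from each other than the DMSO libraries. Klf5 fell by 13.0% (log2 fold change -0.20, SE 0.0516, 95% interval -0.31 to -0.096, adjusted p 0.0172). The size rested on 1 library: without 4-PBA replicate 1 the log2 fold change was -0.13 and the call was lost (adjusted p 0.382).

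Klf7 stood at 56.1 and 55.5 CPM with DMSO and at 49.5 and 50.1 CPM with 4-PBA, against 49.6 and 51.1 CPM at day 0. The 4-PBA values overlapped those of day 0 and lay below both DMSO libraries. Klf7 fell by 10.7% (log2 fold change -0.16, SE 0.0463, 95% interval -0.26 to -0.070, adjusted p 0.0307). This call was the least secure of the 3, since it was lost in the DESeq2 Wald test (adjusted p 0.0558) and without day 0 replicate 1 (0.0524), DMSO replicate 1 (0.0561), 4-PBA replicate 1 (0.248) or 4-PBA replicate 2 (0.170), although the log2 fold change stayed between -0.17 and -0.15 over the 14 alternatives.

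The other 7 genes were not called between 4-PBA and DMSO. With 4-PBA, Klf4 stood at 332 and 333 CPM, Klf3 at 176 and 174 CPM, Klf13 at 125 and 131 CPM, Klf10 at 67.1 and 71.1 CPM and Klf2 at 95.8 and 89.1 CPM. These 5 genes overlapped with their DMSO libraries, and their log2 fold changes lay between -0.011 for Klf3 and 0.031 for Klf4. The 95% intervals bound what could have been missed: -0.035 to 0.097 for Klf4, -0.081 to 0.059 for Klf3, -0.075 to 0.073 for Klf13, -0.072 to 0.12 for Klf10 and -0.058 to 0.11 for Klf2. Klf9 stood at 52.5 and 55.1 CPM with 4-PBA, above both DMSO libraries at 48.9 and 51.2 CPM (log2 fold change 0.10, SE 0.0485, 95% interval 0.0051 to 0.20, adjusted p 0.266). For Klf15 the interval ran from -1.15 to 1.35, and no difference was detectable at this depth.

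Between the same groups, the summed proliferation markers were higher with 4-PBA (553 to 562 against 446 to 519 CPM). The summed myogenic markers were lower (5353 to 5441 against 5506 to 5744 CPM). Of the 8 myogenic markers, 2 were called lower (Des and Mymk) and 0 higher, with 5 values below 0 and 3 above. Mean Des was 2212 CPM with DMSO and 2052 CPM with 4-PBA, and mean Myh3 2017 and 2043 CPM. Of the 5 proliferation markers, 1 was called higher (Pcna) and 0 lower, with 5 values above 0 and 0 below. At an unadjusted p under 0.05 in edgeR, 4 of these 5 passed (16.7% of all tested genes did), 4 of them higher. DESeq2 called 1 of the 5 higher and limma-voom 4. Over all tested genes, edgeR called 2.78% lower and 2.13% higher. The part of these markers in the Klf5, Klf6 and Klf7 values was not tested.

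**Figure D3:**
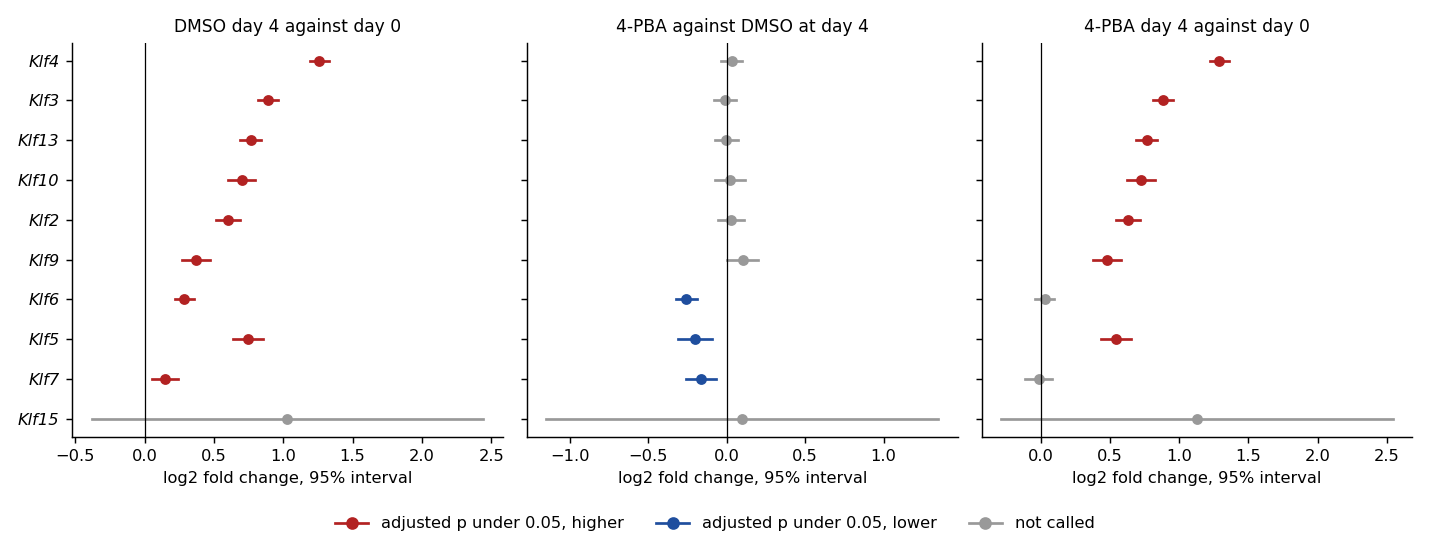
Log2 fold changes of the 10 Klf genes with 95% intervals in the 3 comparisons, coloured by the edgeR call (adjusted p under 0.05). With DMSO against day 0, the 9 called values lie above 0, as does that of Klf15, which passed the filter only through its day 4 libraries. Between 4-PBA and DMSO only the intervals of Klf6, Klf5, Klf7 and, uncalled after adjustment, Klf9 lie clear of 0.

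Cells with 4-PBA were also set against day 0, which reuses libraries of both comparisons above, so these values are given only side by side with theirs. edgeR called 7 of the 10 genes higher and 0 lower, where 33.2% of all tested genes were called higher, 32.4% lower and 65.6% in either direction. DESeq2 and limma-voom also called 7 higher and 0 lower. The log2 fold change was 1.29 for Klf4 (1.26 with DMSO), 0.88 for Klf3 (0.89), 0.76 for Klf13 (0.77), 0.72 for Klf10 (0.70) and 0.63 for Klf2 (0.60). It was 0.48 for Klf9 (0.37) and 0.54 for Klf5 (0.74). Klf6 and Klf7 were not called against day 0 with 4-PBA, at 0.029 (SE 0.0335, 95% interval -0.040 to 0.097, adjusted p 0.468) and -0.017 (SE 0.0469, 95% interval -0.11 to 0.078, adjusted p 0.771), beside 0.29 and 0.15 with DMSO. Klf15 was again unresolved (1.13, SE 0.696, adjusted p 0.156).

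**Figure D4:**
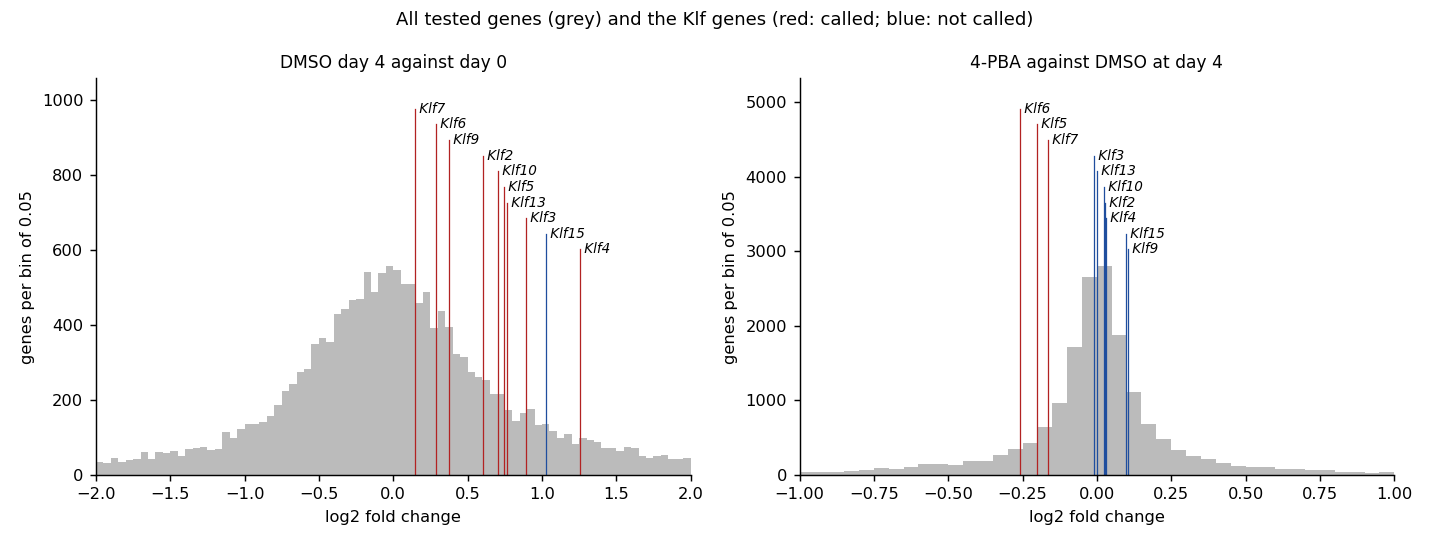
Distribution of log2 fold changes over all 17433 tested genes (grey, bins of 0.05; values beyond the axes are not drawn) with the 10 Klf genes as lines, red where called. For DMSO against day 0 the Klf genes lie above 0, and between 4-PBA and DMSO most lie near 0, with Klf6 (-0.26), Klf5 (-0.20) and Klf7 (-0.16) to the left.

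The size of these changes was ordinary for differentiating cells and moderate for 4-PBA. In absolute log2 fold change between DMSO and day 0, Klf4 exceeded 81.4% of all tested genes, Klf3 71.8%, Klf6 33.0% and Klf7 17.6%. Between 4-PBA and DMSO, Klf6 exceeded 77.2% of all tested genes, Klf5 71.7% and Klf7 66.2%, while the median called gene had an absolute log2 fold change of 0.22.

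Relatives of these genes were measured as well. Of 16 other Klf and Sp genes, 12 passed the filter, and between DMSO and day 0 edgeR called 4 higher and 4 lower, close to the 33.8% and 32.6% of all tested genes. Their median log2 fold change was 0.12 against 0.02 over all tested genes. Klf11, a Sin3a-binding relative of Klf10, rose from 22.9 and 23.4 CPM to 40.0 and 40.4 CPM (0.79 in log2, SE 0.0556, adjusted p 6.53e-15), and Klf12, a CtBP-binding relative of Klf3, rose as well (0.80, SE 0.138). Sp4 (0.57, SE 0.106) and Sp6 (0.92, SE 0.133) also rose. Klf16, another Sin3a-binding member, fell from 42.9 and 43.4 CPM to 30.3 and 31.5 CPM (-0.48, SE 0.0542, adjusted p 1.06e-09). Sp1 (-0.16, SE 0.0389) and Sp3 (-0.30, SE 0.0372), widely expressed factors that share GC boxes with the Klf proteins, fell. Sp8, a developmental regulator of limb and brain, fell from 15.5 and 15.7 CPM to 1.46 and 1.11 CPM (-3.61, SE 0.142, adjusted p 4.55e-22). Klf8 (0.32), Sp2 (-0.076), Sp7 (-0.34) and Sp9 were not called, and no fold is given for Sp9, whose day 0 libraries held 3 and 2 counts. An antisense gene overlaps exons of Sp2, Sp3, Sp6 and Sp9, whose values are uncertain to that extent.

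With 4-PBA against DMSO, 1 of these 12 relatives was called higher and 1 lower (2.13% and 2.78% of all tested genes). Sp1 stood at 117 and 109 CPM with DMSO and at 104 and 98.4 CPM with 4-PBA (-0.16 in log2, SE 0.0391, adjusted p 0.0125). Its call was lost without DMSO replicate 1 (-0.10, adjusted p 0.112) or 4-PBA replicate 2 (-0.12, adjusted p 0.311), the first of which moved the value by more than 1.5 times. Sp8 stood at 1.46 and 1.11 CPM with DMSO and at 2.01 and 1.84 CPM with 4-PBA (0.60, SE 0.174, adjusted p 0.0373). It was called in 6 of 14 alternatives, with adjusted p-values from 0.00745 to 0.326.

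A list of 9 genes, all tested, held kinases and MEF2 factors of the ERK5 arm, through which Klf2 and Klf4 are known to be induced, and Npnt, which lies downstream of them. Between DMSO and day 0, 5 rose, Npnt among them, and 3 fell, where 33.8% of all tested genes were called higher and 32.6% lower. The median log2 fold change of the list was 0.31. Mef2c rose from 7.47 and 7.52 CPM to 68.6 and 70.7 CPM (3.21, SE 0.0601, adjusted p 1.27e-31), and Mef2a rose from 125 and 125 CPM to 328 and 338 CPM (1.41, SE 0.0319, adjusted p 3.33e-29); exons of Mef2a overlap Lysmd4 on the opposite strand. Npnt, the integrin ligand nephronectin and a known target of Klf2 and Klf4 in fusing myoblasts, rose by 1.01 (SE 0.0336) on the log2 scale, and Mapk7, which encodes ERK5, fell by 0.26 (SE 0.0543). Npnt and Mapk7 were named after their values were seen. By edgeR, 0 of the 9 were called between 4-PBA and DMSO, and DESeq2 and limma-voom called 0. An unadjusted p under 0.05 was reached by 4 (16.7% of all tested genes did), 0 of them higher. Of the 9 values, 7 lay below 0 and 2 above.

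Of 10 corepressor and turnover genes, 3 rose and 6 fell between DMSO and day 0 (median -0.20), against 33.8% higher and 32.6% lower over all tested genes. Fbxw7, the ubiquitin ligase subunit that marks Klf5 for degradation, rose from 26.4 and 23.1 CPM to 55.2 and 55.7 CPM (1.17, SE 0.0552, adjusted p 1.27e-19). Hdac1, a deacetylase of the Sin3a complex, fell from 112 and 110.4 CPM to 71.3 and 70.8 CPM (-0.65, SE 0.0407, adjusted p 3.34e-16). By edgeR, 0 of the 10 were called between 4-PBA and DMSO, and 0 by DESeq2 and limma-voom. An unadjusted p under 0.05 was reached by 2, near the 16.7% of all tested genes, and 2 of these 2 were higher.

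Of 15 genes known as Klf targets in other settings, 2 rose and 7 fell between DMSO and day 0 (median -0.18). Over all tested genes, 66.3% were called, 33.8% higher and 32.6% lower. Cdkn1a, the cell cycle inhibitor p21 and a known target of Klf4 and Klf6, rose from 195 and 187 CPM to 728 and 797 CPM (1.99, SE 0.0377, adjusted p 8.75e-22). S1pr1, a sphingosine phosphate receptor that Klf2 activates in T cells, fell from 24.7 and 26.8 CPM to 9.22 and 9.53 CPM (-1.46, SE 0.0798, adjusted p 6.70e-18). Of the 15, 1 was called between 4-PBA and DMSO (4.90% of all tested genes were), Cdkn1a, at 672 and 693 CPM with 4-PBA (-0.16, SE 0.0359, adjusted p 0.00962). Its value was -0.092 without DMSO replicate 2, and the call was lost without 4-PBA replicate 1 (-0.14, adjusted p 0.163). Exons of Cdkn1a overlap AC167363.2 on the opposite strand.

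Klf9 and Klf15 are known glucocorticoid-responsive genes, and 14 others were compared, of which 13 were tested. Between DMSO and day 0, 8 rose and 3 fell (median 0.66), against 33.8% and 32.6% of all tested genes. The 3 that fell were Fkbp5 (-1.02 in log2, SE 0.0940), Sgk1 (-0.67, SE 0.0546) and Ddit4 (-0.56, SE 0.0573). Fkbp5 and Sgk1 were named after their values were seen. Trim63, a muscle ubiquitin ligase, rose from 0.329 and 0.399 CPM to 15.6 and 16.9 CPM (5.45, SE 0.156, adjusted p 3.21e-26), and Fbxo32, another, from 24.4 and 23.2 CPM to 64.2 and 68.5 CPM (1.48, SE 0.0513, adjusted p 9.72e-24); exons of Fbxo32 overlap Gm15943 on the opposite strand. With 4-PBA, 3 of the 13 fell against DMSO and 0 were called higher, where 2.78% of all tested genes were called lower and 2.13% higher. At an unadjusted p under 0.05, 9 of the 13 passed (16.7% of all tested genes did), 4 of them higher; DESeq2 called 4 and limma-voom 5, each with 1 higher. Per1, a component of the circadian clock, stood at 39.4 and 37.4 CPM with 4-PBA against 47.7 and 47.1 CPM with DMSO (-0.30, SE 0.0531, adjusted p 3.32e-04). Trim63 (-0.37, SE 0.0902, adjusted p 0.0107) and Ddit4, a stress-induced inhibitor of mTOR (-0.22, SE 0.0591, adjusted p 0.0243), were the others. The call of Trim63 was lost without DMSO replicate 2 (adjusted p 0.114) or 4-PBA replicate 2 (0.186), and that of Ddit4 without DMSO replicate 1 (0.169), 4-PBA replicate 1 (0.189) or 4-PBA replicate 2 (0.153).

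Genes with the most similar pattern were sought among genes with a mean of at least 10 CPM, 9690 for each member (9691 for Klf15), by the root mean square difference of gene-centred log2 CPM over the 6 libraries. The nearest genes were Junb (0.015) and Ski (0.017) for Klf2, Mctp1 (0.027) and Appl2 (0.031) for Klf4, and Ralgds (0.016) and H2-T23 (0.017) for Klf3. They were Zfp869 (0.021) and Ifi203 (0.029) for Klf6, Ern1 (0.0083) and Ap5z1 (0.013) for Klf7, and Slc25a45 (0.041) and Ulk3 (0.044) for Klf5. For Klf9, Klf10 and Klf13 they were Rybp (0.015) and Sgsm2 (0.019), Parp12 (0.024) and Gprc5b (0.025), and Pld3 (0.021) and Rhbdf1 (0.023). The nearest genes to Klf15, Higd2a (0.18) and Mr1 (0.19), were much further away. Among the 10 genes, the closest pair was Klf10 with Klf13 (0.0479), followed by Klf3 with Klf13 (0.0685) and Klf6 with Klf7 (0.0686). These distances describe 6 libraries in 3 groups, which share normalisation, and carry no test.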

How the data were processed

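The data were RNA sequencing libraries of C2C12 cells, 2 for each of 3 groups. Per the labels' protocols, libraries were directional and made from DNase-treated total RNA. The values the authors deposited are raw counts per gene symbol, 1 column per library, neither normalised nor pooled; GRCm39 is the build per the submitters' processing notes, and the aligner, counter, annotation and use of strand are not given in the sources used here. Counts were fitted with edgeR 4.0.16 in R 4.3.3: filterByExpr by group, TMM, 1 mean per group over 6 libraries, robust quasi-likelihood F test, and Benjamini-Hochberg adjustment over 17433 genes, called at an adjusted p under 0.05. The fit had 3 residual degrees of freedom and a median of 30.4 prior ones. SE is the log2 fold change divided by the square root of F, and 95% intervals use the moderated degrees of freedom. Relabelling 2 libraries against 2 cannot give p below 0.333, so the tests borrow their spread from all genes. Replicates differed by more than sampling noise (chi-square per degree of freedom 3.98 to 7.15). Depth was 47908926 to 74697397 counts per library, and the common biological coefficient of variation was 3.74%.

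Lengths and overlaps came from GENCODE M21. Named were all 10 members, other Klf and Sp genes tested, and from each other list the genes called between 4-PBA and DMSO and the 2 largest changes between DMSO and day 0 with at least 5 CPM. The members and lists were chosen with earlier results of these data known. In counts simulated for 4-PBA against DMSO, 4 sets of genes were changed among 16950. There edgeR recovered 26 of 50 genes changed 1.25-fold, 38 of 50 changed 1.5-fold, 36 of 50 changed 2-fold and 43 of 50 changed 4-fold, with 10 false calls. Klf6 (1.20-fold lower with 4-PBA), Klf5 (1.15-fold) and Klf7 (1.12-fold) changed by less than the smallest simulated size, so the simulation does not cover them. Alternatives tried were other filters, scaling by DESeq2 size factors or by library size only, DESeq2 1.42.0, limma-voom 3.58.1, only the 4 libraries compared, a replicate block, and leaving out each library. Figures used Python 3.11.15 and matplotlib 3.10.9.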

Additional observations from a re-analysis of the deposited data

How the results depend on the processing

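Under 14 alternatives, the number of members called between DMSO and day 0 was 9, except 8 without day 0 replicate 1, and between 4-PBA and day 0 it was 7 throughout. Between 4-PBA and DMSO it was 3 under 9 alternatives, 2 with the DESeq2 Wald test, and between 1 and 3 when each library was left out, with 2 without day 0 replicate 1, DMSO replicate 1 or 4-PBA replicate 2 and 1 without 4-PBA replicate 1. With the replicate block the counts were 9, 3 and 7, as without it. The replicate numbers were not stated to pair libraries, and the differences between replicates correlated across groups at 0.062, -0.094 and -0.084. For single members, 138 of 139 values between DMSO and day 0, 120 of 138 between 4-PBA and DMSO and 136 of 138 between 4-PBA and day 0 kept direction and side of the threshold. Signs turned only in uncalled differences. When each library was left out, the log2 fold change between 4-PBA and DMSO ran from -0.027 (without 4-PBA replicate 1) to 0.077 for Klf2, from -0.048 to 0.027 (without DMSO replicate 2) for Klf3, and from -0.011 (without DMSO replicate 1) to 0.075 for Klf4. It ran from -0.031 to 0.081 for Klf10 (-0.018 without 4-PBA replicate 2), from -0.034 to 0.032 for Klf13 (0.011 without DMSO replicate 1), and from -0.38 to 0.46 for Klf15 (-0.024 without DMSO replicate 1). Klf13 stood at 0.0016 with DESeq2 size factors and with the DESeq2 Wald test, and at 0.0082 with library size only. Between 4-PBA and day 0 it ran from -0.018 (without 4-PBA replicate 1) to 0.080 for Klf6 and from -0.040 to 0.0083 (without day 0 replicate 2) for Klf7. Counts of calls between 4-PBA and DMSO in the other lists also moved: the other Klf and Sp genes from 2 to between 0 and 1 under 9 alternatives, the ERK5 and MEF2 arm from 0 to 1 without DMSO replicate 1, the corepressor and turnover genes from 0 to 2 with library size only and to 1 under 3 alternatives, the Klf targets from 1 to 0 without 4-PBA replicate 1, and the glucocorticoid-responsive genes from 3 to 5 or 6 under 4. The replicate block accounted for 2 of these moves, with Sp8 at an adjusted p of 0.0503 and 5 glucocorticoid-responsive genes called. Klf15 gave no value under the stricter filter. With library size only, 51.5% of all calls between 4-PBA and DMSO were higher, against 43.4% with TMM. Where a library was left out, the lone library of its group was assumed to vary like the others. The causes of these shifts were not tested. With the longest transcript as length, the level of Klf5 with DMSO was 20.8 in place of 13.4 CPM per kilobase. Depth limited Klf15, with 6 to 18 counts per library.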
